A study of Saccharomyces cerevisiae with 8 samples.

Results

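The cytosolic ribosomal protein genes of budding yeast were followed across 4 kinds of culture. They were taken as the genes whose annotated symbol is RPL (large subunit) or RPS (small subunit) with a number and, where the gene is duplicated, a letter A or B. A gene was counted when a probe set names that gene and no other, and the probe set with the highest mean signal over the 8 arrays stood for it. This gave 75 genes, 42 of the large and 33 of the small subunit, among 5656 genes with such a probe set. A further 54 genes with matching symbols in the RefSeq table of assembly R64 are read here by probe sets that name both copies of a pair.

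The cytosolic ribosome joins a small subunit, which reads the mRNA, to a large subunit, which makes the peptide bond and passes the growing chain through an exit tunnel. In yeast most ribosomal protein genes were kept as pairs after a genome duplication, and the copies of a pair encode identical or nearly identical proteins. Their transcription is known to be driven by Rap1, Fhl1, Ifh1 and Sfp1, tied to the TOR and protein kinase A pathways, and to be high in fast growth and low in many stresses.

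RNA came from 4 groups of 2 samples, each on 1 Affymetrix YG_S98 array. In the first, a strain labelled as a hem1 deletion was kept without 5-aminolevulinic acid (ALA), the product of the enzyme encoded by HEM1, the first of heme synthesis. In the second the same strain had 250 µM ALA. Both had 6 h of growth in rich medium (YPD) with ALA, a wash, and 16 h in 15 ml cultures, to a density of about 0.5 (OD600), per the labels. In the remaining groups a wild type strain, spelled BY45742 in the labels, had 6 h of growth in YPD and then 12 h in hypoxia, made with a gas-generating pack in an anaerobic chamber, or in normoxia. The labels do not say whether the wild type samples of a group were separate cultures, so p-values cover no more than the spread of these samples, whose source may be technical. Both hem1 groups carry the deletion by their labels and differ from the wild type groups in strain, ALA and culture time, so in a contrast across strains these cannot be told apart.

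All values are MAS5 signals, an intensity per probe set scaled by the authors to a common trimmed mean. Array medians ran from 98.1 to 158.8. Of the gene named as deleted, the HEM1 probe set read 849 and 696 without ALA, against 459.7 and 608 with ALA, and 1413 and 1613 in hypoxic cells, against 707 and 683 in normoxic cells. It gave signal on the arrays labelled hem1. No source used here places this probe set inside or outside the deletion, so the strain labels are unchecked. The 18S ribosomal RNA control signal was 3507 and 115 without ALA, against 180.2 and 170.4 with ALA, and 355 and 10736 in hypoxia, against 122 and 259 in normoxia, so 1 array of each treated group stood apart. The ratio of the 3' to the 5' ACT1 control, a sign of RNA integrity, was 1.81 and 1.77 without ALA, against 1.86 and 1.57 with ALA, and 2.11 and 2.18 in hypoxia, against 1.40 and 1.49 in normoxia. It was higher than in normoxia, with no overlap, both in hypoxia and in hem1 with ALA. The part of this ratio in the results was not tested.

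As a group, the ribosomal protein genes were lower in both treatments. Their median signal was 4572 and 4448 on the arrays without ALA, against 7701 and 7485 with ALA. It was 3847 and 3854 in hypoxia, against 7715 and 7780 in normoxia. The treated arrays lay below their controls with no overlap, and the arrays of a group lay close together, with an SD of 0.0206 for the members' median log2 signal between arrays of a group. The 75 probe sets made up 7.77% and 7.27% of the summed signal without ALA, against 11.0% and 10.4% with ALA, and 6.50% and 6.55% in hypoxia, against 11.3% and 10.9% in normoxia. In these samples fewer cells with the transcripts and less transcript per cell cannot be told apart.

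**Figure D1:**
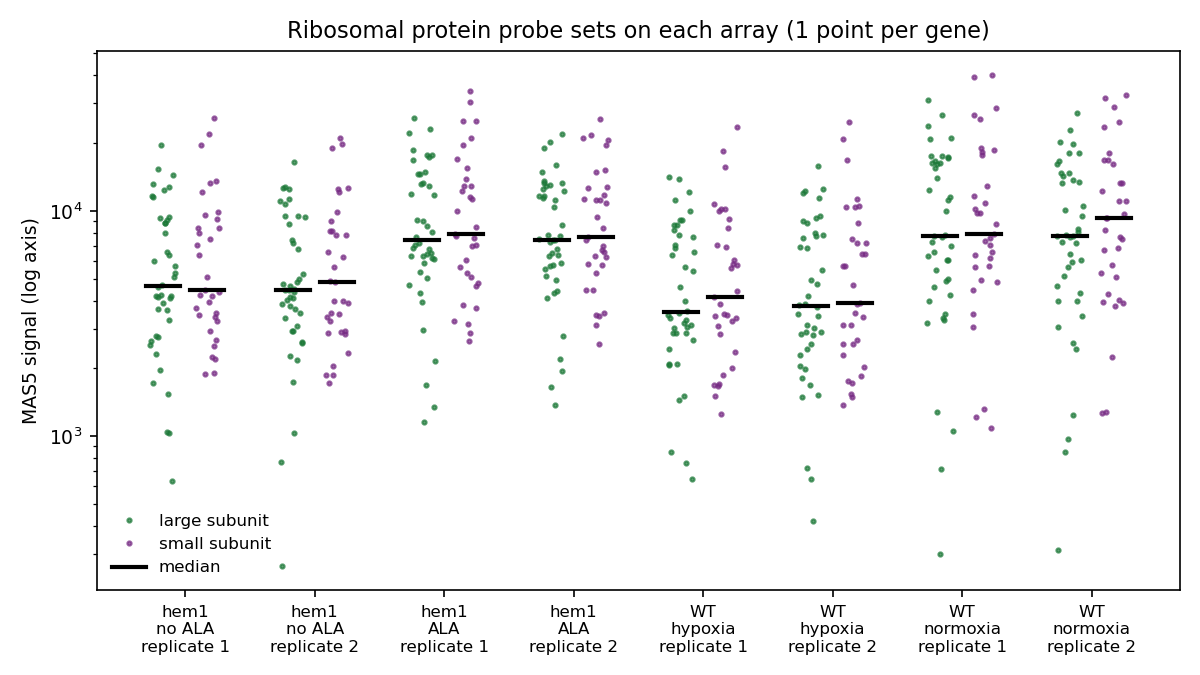
MAS5 signal (log axis) of the 75 ribosomal protein genes on each of the 8 arrays, large subunit in green and small subunit in purple, with the median of each subunit as a black line. The arrays without ALA and in hypoxia have member medians of 3847 to 4572, below the 7485 to 7780 of the arrays with ALA and in normoxia.

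With ALA withheld, 58 of the 75 genes were lower, 1 was higher and 16 passed no test, at an adjusted p under 0.05 in a limma fit across 7081 probe sets. Log2 differences are given as without minus with ALA, and hypoxia minus normoxia, with the standard error of the fit after ±. In that fit 19.7% of all probe sets were called lower and 30.2% higher. The members' median log2 difference was -0.68, beside 0.14 over all probe sets tested. Lower calls of at least 2-fold were made for 12 of the 75 members, and for 650 of all 7081 probe sets. Both subunits took part: 32 of 42 large subunit genes were called lower, with a median of -0.71, and 26 of 33 small subunit genes, with a median of -0.62. These sizes depend on the scaling. The median log2 signal of all probe sets was itself 0.40 higher without than with ALA, and the members' median was -1.09 with every array centred on its median and -0.48 after quantile normalization, with 73 and 43 called lower. Over all probe sets 1393 were called lower and 2141 higher as deposited, and 2409 lower and 1403 higher with median centring.

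The lowest values without ALA were all in large subunit genes. RPL9A, which encodes uL6 near the base of the stalk that binds translation factors, read 631 and 266 without ALA, against 1154 and 1650.4 with ALA (log2 difference -1.75 ± 0.39, adjusted p = 0.00618). The arrays without ALA differed widely from each other, and the log2 difference was -2.38 without the first of them and -1.13 without the second, called lower in both. RPL14B, for eL14, read 1723 and 2623 without ALA, against 6444 and 5731 with ALA (log2 difference -1.52 ± 0.27, adjusted p = 0.0024), and RPL27A, for eL27, read 1542 and 2176 without ALA, against 5365 and 4402 with ALA (log2 difference -1.41 ± 0.19, adjusted p = 5.50e-04). The arrays without ALA lay below those with ALA in both genes. RPL16A and RPL16B, the copies of the uL13 gene, moved together, with log2 differences of -1.28 ± 0.27 and -1.23 ± 0.21 (adjusted p = 0.00532 and 0.00172).

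RPL15B was the exception. It encodes a copy of eL15, a core protein of the large subunit, and read 3902 and 4006 without ALA, against 2153 and 1942 with ALA, a rise of 1.93-fold (log2 difference 0.95 ± 0.15, adjusted p = 0.00132). The signal with ALA was the low one: normoxic wild type cells had 3354 and 3051, and hypoxic cells 3120.1 and 3837. Its partner RPL15A read 4251 and 4736 without ALA, against 6207 and 5135 with ALA (log2 difference -0.33, adjusted p = 0.106). The call for RPL15B held in every alternative tried.

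After RPL15B, the 4 highest values belonged to genes with no call. RPS26A, whose protein lines the exit of the mRNA channel, read 25730.5 and 19898 without ALA, against 24977 and 20634 with ALA, and the arrays overlapped (log2 difference -0.00 ± 0.15). This gene has another single-gene probe set, which read 7921 and 7613 without ALA, against 14936 and 11989 with ALA, and was called lower (log2 difference -0.79, adjusted p = 0.00391), so its probe sets disagreed. RPL10, whose protein joins the large subunit last and is needed for subunit joining, read 11586 and 11322 without ALA, against 13238 and 11658 with ALA (log2 difference -0.12 ± 0.12). RPS14B and RPL37A had log2 differences of -0.17 ± 0.21 and -0.21 ± 0.15. With median centring RPL10, RPS14B and RPL37A were called lower, at -0.52, -0.57 and -0.61, and after quantile normalization RPS26A was called higher, at 0.30, and with the mean of its probe sets lower, at -0.40.

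In hypoxia 61 of the 75 genes were lower, 2 were higher and 12 passed no test, where 22.5% of all probe sets tested were lower and 33.3% higher. The median log2 difference was -0.88, beside 0.21 over all probe sets tested. Lower calls of at least 2-fold were made for 29 of the 75 genes, and for 821 of all 7081 probe sets. In the large subunit 35 of 42 genes were called lower, with a median of -0.87, and in the small subunit 26 of 33, with a median of -0.99. The members' median was -1.37 with median centring and -0.60 after quantile normalization, with 69 and 50 called lower, while the median of all probe sets had shifted by 0.49. Over all probe sets 1596 were called lower and 2358 higher as deposited, and 2621 lower and 1414 higher with median centring.

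RPL7A, a copy of the gene for uL30, had the lowest value of any member in hypoxia. It read 3599 and 1805 in hypoxic cells, against 17096 and 13312 in normoxic cells (log2 difference -2.57 ± 0.31, adjusted p = 2.44e-04). Its brighter and middle probe sets were both called lower, at -2.57 and -2.04. Another, dim one read 168 and 95.4 in hypoxic cells, against 68.3 and 22.9 in normoxic cells, and was called higher, at 1.68, while the mean of all 3 gave -0.97. RPL13A, for eL13, read 3027 and 2887 in hypoxic cells, against 11170.4 and 8020.3 in normoxic cells (log2 difference -1.68 ± 0.19, adjusted p = 1.62e-04). RPS0A, for uS2, which is needed to mature the small subunit RNA, read 3847 and 2682 in hypoxic cells, against 10226 and 9279.6 in normoxic cells (log2 difference -1.60 ± 0.18, adjusted p = 1.67e-04). RPS1A and RPS1B, for eS1 near the mRNA exit, both fell, by 1.53 and 1.47 on the log2 scale (adjusted p = 5.00e-05 and 1.02e-04).

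Against this fall, RPL22B and RPL7B were higher in hypoxia. RPL22B encodes a copy of eL22, a protein that cells can live without, and Rpl22 protein is known to hold back the splicing of RPL22B RNA. It read 853 and 643 in hypoxic cells, against 301 and 311 in normoxic cells, 2.42-fold higher (log2 difference 1.28 ± 0.20, adjusted p = 8.93e-04). RPL7B read 1511 and 1686 in hypoxic cells, against 1055 and 974 in normoxic cells, 1.57-fold higher (log2 difference 0.65 ± 0.15, adjusted p = 0.00557). The arrays did not overlap in either gene. The call for RPL7B was lost with median centring, at 0.17, while that for RPL22B held in every alternative tried. RPS9A, RPS14B and RPL15B, next in order, passed no test, with log2 differences of 0.27 ± 0.15, 0.17 ± 0.21 and 0.11 ± 0.15.

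The members were also grouped by the place of their proteins in the ribosome. At the rim of the peptide exit tunnel 6 genes were measured, RPL17A, RPL17B, RPL25, RPL31A, RPL31B and RPL39. Without ALA 3 of them were lower (RPL17B, RPL25 and RPL39) and in hypoxia all 6, where 19.7% and 22.5% of all probe sets were. The count without ALA rests on the chosen probe sets, in both directions. Another single-gene probe set was called lower for each of the rest, at -0.66 for RPL17A, -0.63 for RPL31A and -0.55 for RPL31B. A further RPL31B probe set had no call, at -0.29. Of the 3 single-gene probe sets of RPL17B, which ran from -0.61 to -0.35, only the chosen one was called lower. The call for RPL17B without ALA, at -0.54, was lost without the second array lacking ALA, at -0.30, without either array with ALA, at -0.49 and -0.58, and after quantile normalization, at -0.18. RPL25, whose protein is the docking site for factors that meet the nascent chain, read 3630.4 and 3683 without ALA, against 6279.7 and 6299 with ALA, and 2684 and 2572 in hypoxic cells, against 6281 and 6027 in normoxic cells. It was called lower in both, at -0.78 and -1.23 (adjusted p = 0.00116 and 8.22e-05). RPL39, whose protein lines the tunnel wall, was lower in both, with log2 differences of -0.99 ± 0.24 and -1.04 ± 0.24, and the call without ALA was lost without the first array of that group, at -0.64.

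Of 13 measured genes of the head of the small subunit, 12 were lower without ALA and 10 in hypoxia. Of all 75 members 58 and 61 were lower, and of all probe sets tested 19.7% and 22.5%. RPS20, for uS10, read 3253 and 3493 without ALA, against 7031 and 6258 with ALA, and 3238 and 2576 in hypoxic cells, against 7069 and 7693 in normoxic cells, and fell by 0.98 and 1.35 on the log2 scale. RPS31, the measured gene that encodes a ribosomal protein fused to ubiquitin, passed neither test, with log2 differences of -0.53 ± 0.23 and -0.43 ± 0.23. The other ubiquitin fusion genes, RPL40A and RPL40B, are read by a shared probe set that was called lower in both, at -0.73 and -0.94 (adjusted p = 0.00225 and 4.75e-04). RPS28B and RPS29B were the others in the head with no call in hypoxia, at -0.02 ± 0.24 and -0.72 ± 0.36. RPS29B read 4343 and 1727 without ALA, against 5656 and 5826 with ALA, and its lower call without ALA, at -1.07, was lost without the second array of that group, at -0.40, without either array with ALA, at -1.09 and -1.05, without either hypoxia array, and after quantile normalization, at -0.91. RPL5, whose protein carries the 5S RNA into the large subunit, read 6577 and 5224 without ALA, against 11731 and 12231 with ALA, and fell by 1.03 on the log2 scale (adjusted p = 0.0039). It then read 7031 and 7839 in hypoxic cells, against 11567 and 7649.9 in normoxic cells (log2 difference -0.34 ± 0.21, adjusted p = 0.188), and the arrays overlapped. Of the 17 members with no paralog, 13 were lower without ALA and 14 in hypoxia.

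Side by side, 50 genes were called lower in both treatments, where 12.0% of all probe sets tested were, 6 were called lower without ALA with no call in hypoxia, 11 the other way round, and 5 had no call in either. A call in 1 treatment does not show that the responses differ: by the test of that difference 1 of the 6 genes (RPS9A) and 1 of the 11 (RPL6A) were called. RPL7B and RPL22B were called lower without ALA and higher in hypoxia, and RPL15B higher without ALA with no call in hypoxia. The lower call of RPL22B without ALA (-0.61 ± 0.20, adjusted p = 0.0325) was lost without the second array lacking ALA, at -0.40, or without either array with ALA, at -0.63 and -0.59. Across the 75 genes the log2 differences of the treatments, which share no arrays, correlated with r = 0.33 (Pearson) and rho = 0.33 (Spearman), given as a description because genes are not independent samples. The same over all 7081 probe sets was 0.73 and 0.68.

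**Figure D2:**
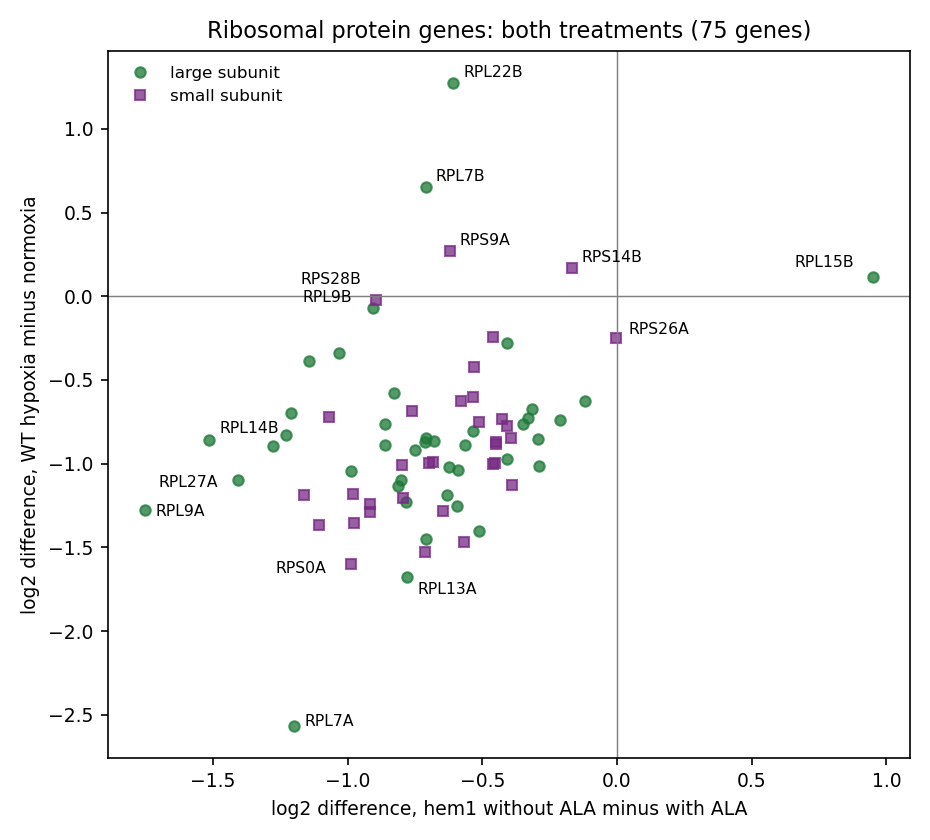
Log2 difference in hypoxia (vertical axis, WT hypoxia minus normoxia) against that with ALA withheld (horizontal axis, hem1 without minus with ALA) for the 75 genes, large subunit as circles and small subunit as squares. Most points lie below and left of 0, with medians of -0.68 and -0.88, while RPL22B, RPL7B, RPS9A and RPS14B lie above 0 for hypoxia and RPL15B lies above 0 for both.

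The difference of the responses (heme depletion minus hypoxia), a contrast that also carries strain and culture time, was tested in the same fit. It was called for 3 genes with a lower and 7 with a higher value, where 9.29% of all probe sets tested were lower and 8.46% higher. The members' median was 0.30, beside 0.01 over all probe sets tested. The lower ones were RPL22B at -1.88 ± 0.28, RPL7B at -1.37 ± 0.21 and RPS9A at -0.89 ± 0.22 (adjusted p = 0.0047, 0.00507 and 0.0269). RPL22B and RPL7B kept this call in every alternative tried, and RPS9A lost it without the second array lacking ALA, the second with ALA, either hypoxia array or the first normoxia array, at -0.77 to -0.90, and without both arrays of high 18S signal, at -1.02. RPS28B came next, at -0.87 ± 0.34, with no call.

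The 7 higher ones were RPS1B, RPL15B, RPS1A, RPL13B, RPL6A, RPL14A and RPS0B, with differences of 0.64 to 0.90. All but RPL15B had fallen further in hypoxia than without ALA. The number of such genes was 1 without the intensity trend, 0 without the arrays of high 18S signal, and 0 to 6 with any single array left out: 0 without the first normoxia array, 1 without the first array lacking ALA or the first hypoxia array, 2 without the second array lacking ALA, the second with ALA or the second in hypoxia, 3 without the first with ALA, and 6 without the second normoxia array. At an unadjusted p under 0.05 in limma, 7 genes were higher without the arrays of high 18S signal and 15 without the first normoxia array. RPL7A, RPL13A and RPL17A had large values with no call, at 1.37 ± 0.44, 0.90 ± 0.27 and 0.89 ± 0.28. The probe set that names both RPL17A and RPL17B was called higher, at 1.06 (adjusted p = 0.0133). So was a further single-gene probe set of RPL17B, while the chosen one had no call. For RPL7A the value was 1.86 and called without the first hypoxia array, 0.87 without the second, 0.61 without the arrays of high 18S signal and -0.08 with the mean of its probe sets.

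The control cultures, hem1 with ALA and wild type in normoxia, differed in strain, ALA and culture time. Most ribosomal protein genes passed no test between them: 1 was lower and 7 were higher in hem1 with ALA, where 7.92% of all probe sets were lower and 13.8% higher. The median log2 difference was -0.09, beside 0.11 over all probe sets tested. It was -0.32 with median centring and 0.06 after quantile normalization, and the number of lower genes was 9 with median centring, where the median of all probe sets had shifted by 0.23. The lower gene was RPL15B (-0.65 ± 0.15, adjusted p = 0.0194), a call lost without either array with ALA or without the first normoxia array, at -0.57 to -0.72. RPL17A, RPS21A and RPS1B came next, at -0.56, -0.49 and -0.49, with no call, and were called lower with median centring, at -0.79, -0.73 and -0.72. The probe set that names both RPL17A and RPL17B was called lower as deposited, at -0.75 (adjusted p = 0.0107), and so was a further single-gene probe set of RPL17B.

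The 7 higher genes were RPL7B, RPL22B, RPS28B, RPS9A, RPL9B, RPS14B and RPL14B, each 1 copy of a pair, as are 58 of the 75 members. RPL7B read 5047 and 4335 in hem1 with ALA, against 1055 and 974 in normoxia (log2 difference 2.21 ± 0.15, adjusted p = 9.56e-05). RPL22B read 1343 and 1375, against 301 and 311 (log2 difference 2.15 ± 0.20, adjusted p = 3.85e-04). RPS28B, whose RNA is known to be destabilised by its own protein, read 4654 and 5750.3, against 1322 and 2247 (log2 difference 1.59 ± 0.24, adjusted p = 0.00291). None of these overlapped. RPS9A, for uS4, read 2864 and 3411, against 1214 and 1278 (log2 difference 1.33 ± 0.15, adjusted p = 9.49e-04). RPL9B read 1693 and 2212, against 717 and 847 (log2 difference 1.31 ± 0.18, adjusted p = 0.00178). RPS14B, whose RNA is known to be bound and held back by Rps14 protein, read 2647 and 2566, against 1087 and 1264 (log2 difference 1.15 ± 0.21, adjusted p = 0.00652). The arrays of the control cultures did not overlap in these genes either. RPL14B was higher by 0.92 ± 0.27 (adjusted p = 0.0456), a call lost in 10 of 16 alternatives, among them median centring, at 0.69, and leaving out either array with ALA, either hypoxia array or the second normoxia array, at 0.60 to 1.00.

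RPL7A, RPL22A, RPS28A, RPS9B, RPL9A, RPS14A and RPL14A passed no test between the control cultures, with log2 differences of -0.31, -0.10, -0.17, -0.04, 0.13, -0.05 and -0.22. RPL22A read 17299.6 and 14874 in hem1 with ALA, against 17598 and 16685 in normoxia. In hypoxia all 7 partners were called lower, and of the 7 copies RPL14B was lower, RPL7B and RPL22B higher, and the other 4 passed no test. The call for RPL14B was lost without the second hypoxia array, at -0.63, or the first normoxia array, at -0.54, and that for RPL9A without the second hypoxia array, at -0.97, or either normoxia array, at -1.26 and -1.29. Without ALA 6 of the 7 copies were called lower, the exception being RPS14B. Most members were lower as well, 61 of 75 in hypoxia and 58 of 75 without ALA. Over all probe sets tested the shares were 22.5% and 19.7%. The control contrast shares the arrays with ALA with the heme contrast and the normoxic arrays with the hypoxia contrast, so copies chosen as high with ALA and low in normoxia are favoured to be lower without ALA and higher in hypoxia, and these calls are a description.

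**Figure D3:**
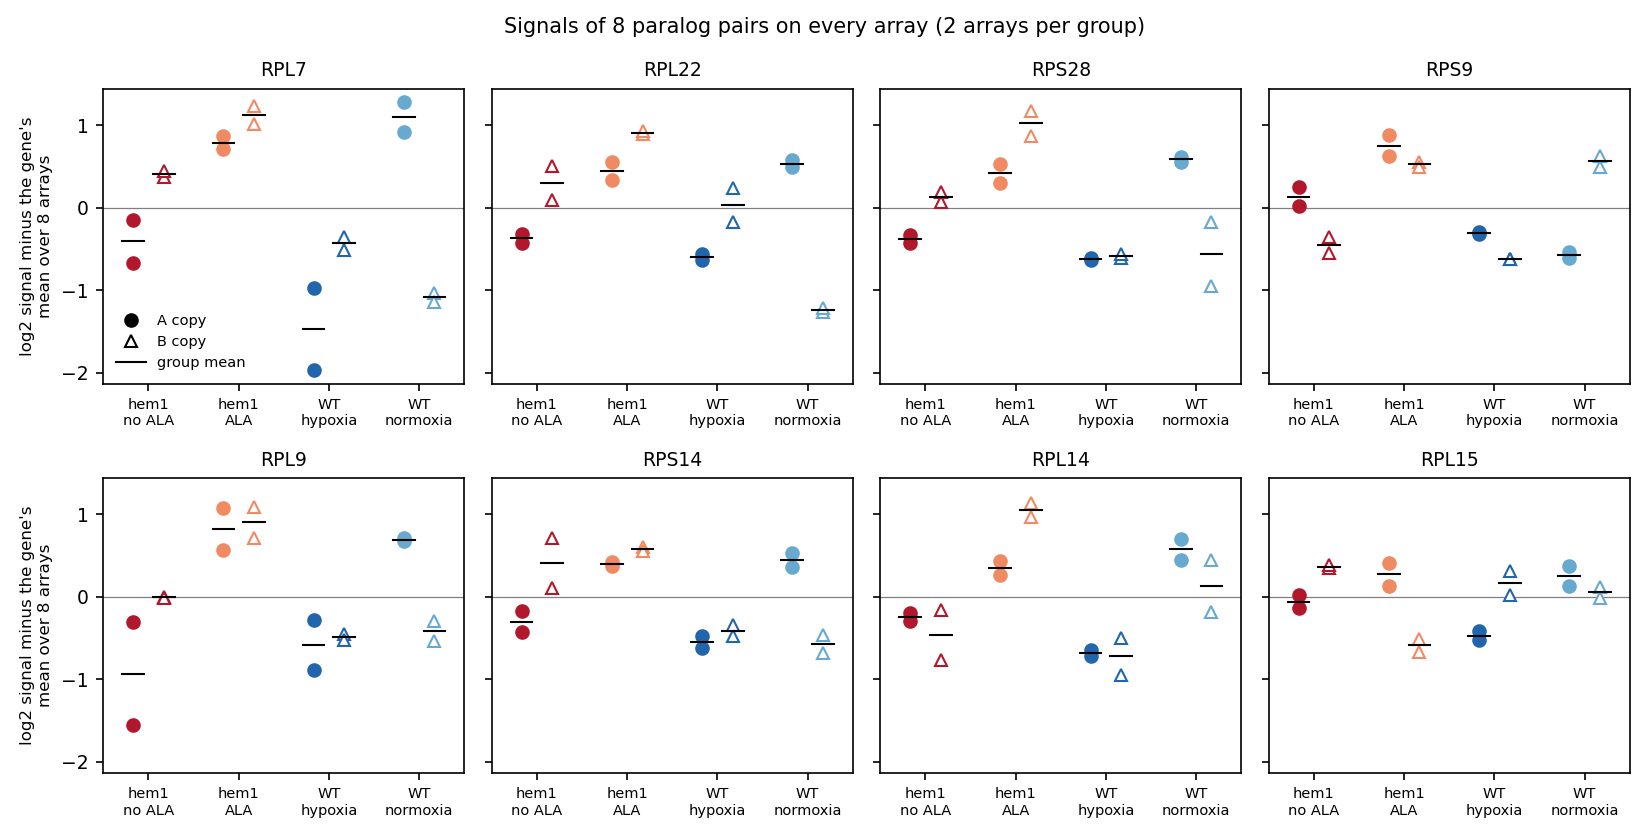
Log2 signal minus the gene's own mean over 8 arrays, for the A copy (filled circles) and B copy (open triangles) of 8 pairs, with 2 arrays per group and the group mean as a black line. In RPL7, RPL22, RPS28, RPL9, RPS14 and RPL14 the B copy, and in RPS9 the A copy, has its highest mean in hem1 with ALA and lies below it in normoxia, while its partner is high in both. RPL15B is low with ALA.

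Both copies were measured singly in 29 pairs. Without ALA both copies were lower in 18 pairs, 1 copy alone was called in 10 and neither in 1. Of all 75 members 58 were lower there, so many such pairs would follow from that share alone. Over all probe sets tested 19.7% were lower. The copies' log2 differences lay a median of 0.26 apart, and 1 pair, RPL15, was more than 1 apart. The next widest pairs were RPL14 with -0.59 for the A and -1.52 for the B copy, RPS26 with -0.00 and -0.92, RPL9 with -1.75 and -0.90, RPS22 with -1.11 and -0.39, and RPS25 with -1.16 and -0.45. Several of these gaps rest on the chosen probe set. The other probe set of RPS26A had -0.79, and those of RPS22B had -0.84 and -0.71, nearer to their partners. Those of RPS25A and RPS25B had -1.45 and 0.04, farther apart.

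In hypoxia both copies were lower in 18 pairs, 1 copy alone was called in 9, and RPL7 and RPL22 were called in opposite directions. Here 61 of all 75 members were lower, beside 22.5% of all probe sets tested. The median distance was 0.40, and 6 pairs were more than 1 apart: RPL7, RPL22, RPS9, RPL9, RPS28 and RPS14. RPL22A fell while RPL22B rose: the A copy read 7644 and 8003 in hypoxic cells, against 17598 and 16685 in normoxic cells (log2 difference -1.13), beside 853 and 643, against 301 and 311, for the B copy. For RPS9 the A copy read 1512 and 1491 in hypoxic cells, against 1214 and 1278 in normoxic cells, and the B copy 3084 and 3105 in hypoxic cells, against 7379 and 6689 in normoxic cells, with log2 differences of 0.27 and -1.18. RPS28A fell by 1.20 and RPS14A by 0.99 on the log2 scale, while RPS28B and RPS14B had -0.02 and 0.17. No test was made between copies. Between the control cultures 7 pairs were more than 1 apart, with a median distance of 0.20, and in the difference of the responses 5.

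**Figure D4:**
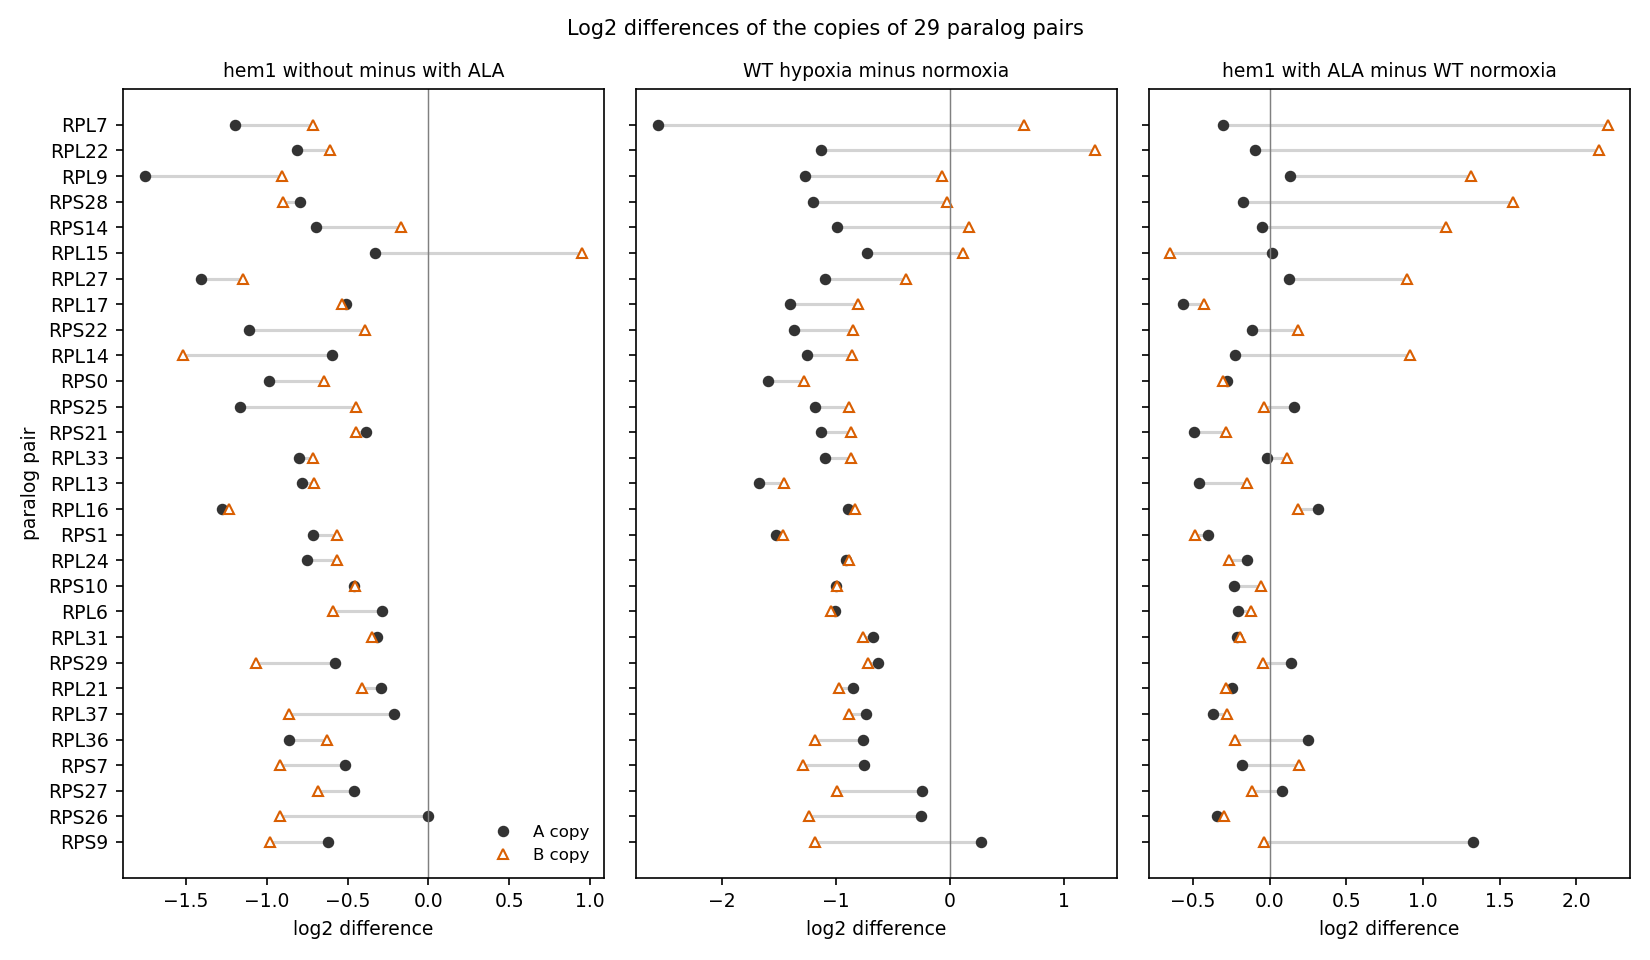
Log2 differences of the A copy (dark circles) and B copy (open triangles) of 29 paralog pairs, joined by a line, in the 3 comparisons named above the panels, with pairs ordered by their distance in hypoxia. Both copies lie below 0 in most pairs without ALA and in hypoxia, while RPL7, RPL22, RPL9, RPS28, RPS14 and RPS9 spread by more than 1 in hypoxia and between the control cultures.

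The copies of a pair are alike in sequence, and an array reads them singly only where its probes differ. Of the 75 probe sets 30 carry a suffix. In 15 it is f, for probes that match a family of similar sequences, among them RPL14A, RPL14B, RPS9A, RPS9B and RPS28A, and in 15 it is i, for a set with fewer probes than the design called for, among them RPL7A, RPL7B, RPL9A, RPL9B and RPS28B. RPL22, RPS14 and RPL15 carry none. Among the 45 genes with no suffix, 33 were lower without ALA and 37 in hypoxia. These counts stand beside 58 and 61 of all 75 members, and 19.7% and 22.5% of all probe sets tested. Of the 45, RPL22B and RPS14B were the ones called higher between the control cultures, and RPL22B was the one higher in hypoxia. RPL7B has a further single-gene probe set, which was also called higher in hypoxia, at 1.02, and RPS28B a further one with no call there, at 0.06. The probe set that names both RPL7A and RPL7B was called lower in hypoxia, at -0.72, and so was that of RPL9A and RPL9B, at -1.23. Those pairs passed no test between the control cultures. The one that names both RPS9 genes read 578 and 471 in hypoxic cells, against 449 and 444 in normoxic cells (log2 difference 0.23, adjusted p = 0.25). Between the control cultures it was called higher in hem1 with ALA, at 1.80, as the RPS9A probe set was.

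The genes that could be read only as a pair were mostly lower as well in the signals as deposited. For the 27 pairs with no singly measured copy, 20 probe sets were lower without ALA and 23 in hypoxia, and none was called higher, with medians of -0.56 and -0.83. Over all probe sets tested 19.7% were lower without ALA and 22.5% in hypoxia. After quantile normalization 8 and 17 of the 27 were lower, beside 1881 and 2136 of all 7081 probe sets. Without ALA that share of the pairs lay near the share of all probe sets. With median centring 27 and 26 were lower, beside 2409 and 2621 of all 7081. RPL41A and RPL41B, for the smallest ribosomal protein, read 195 and 137 without ALA, against 447 and 391 with ALA (log2 difference -1.36, adjusted p = 0.00592). RPS24A and RPS24B read 3354 and 2711 without ALA, against 6059 and 6041 with ALA, and 2804 and 2339 in hypoxic cells, against 5578 and 5467 in normoxic cells, with log2 differences of -1.004 and -1.11. RPS23A and RPS23B, for uS12 in the decoding centre, read 13450.5 and 14007 in hypoxic cells, against 18856 and 10870.0 in normoxic cells, and passed no test (log2 difference -0.06). These pairs were chosen for print after their values were seen.

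Genes around the ribosome were counted from lists, to be read beside the 19.7% of all probe sets lower without ALA and 22.5% in hypoxia. The 5 stalk proteins, which recruit translation factors and whose symbols begin with RPP, were all lower in hypoxia, and 2 of 5 were lower without ALA. With median centring all 5 were lower without ALA, where 2409 of all 7081 probe sets were. After quantile normalization 2 of the 5 were lower without ALA, where 1881 of all 7081 were, and all 5 in hypoxia. Their median log2 differences then were -0.09 and -0.45, beside -0.42 and -0.91 as deposited. RPP2A read 4009.6 and 4446 without ALA, against 9886 and 9759 with ALA (log2 difference -1.22, adjusted p = 2.64e-04), and RPP1A had log2 differences of -0.63 without ALA and -0.95 in hypoxia. The call of RPP1A without ALA was lost without the second array lacking ALA, at -0.52, or the first with ALA, at -0.46. Of 10 chaperones that each carry a ribosomal protein or subunit, 8 were lower without ALA and 6 in hypoxia, and none was higher. With median centring 10 and 9 were lower, and after quantile normalization 9 and 6. SQT1, the chaperone of Rpl10, read 676 and 864 without ALA, against 1681 and 1465 with ALA (log2 difference -1.04, adjusted p = 0.00168), and YAR1, the chaperone of Rps3, read 717 and 770.0 in hypoxic cells, against 1635 and 1776 in normoxic cells (log2 difference -1.20, adjusted p = 2.70e-04). FAP7, which acts in the last steps of small subunit maturation, was lower in both, at -0.90 and -1.14.

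Of 22 measured translation initiation and elongation factors, 15 were lower and 1 higher without ALA, and 14 were lower and 2 higher in hypoxia. Over all probe sets 19.7% were lower and 30.2% higher without ALA, and 22.5% and 33.3% in hypoxia. TEF4, a subunit of the exchange factor of elongation, read 678 and 696 without ALA, against 1482 and 1889.6 with ALA, and 575 and 582 in hypoxic cells, against 2995 and 3568 in normoxic cells, with log2 differences of -1.28 and -2.50 (adjusted p = 5.28e-04 and 1.14e-05). PRT1, an eIF3 subunit, was lower in both, at -0.88 and -0.98. HEF3, which like its paralog YEF3 encodes translation elongation factor 3, rose in both: it read 746 and 822 without ALA, against 60.3 and 52.3 with ALA, and 487 and 697 in hypoxic cells, against 43.5 and 36.3 in normoxic cells, with log2 differences of 3.80 and 3.87 (adjusted p = 7.74e-06 and 4.80e-06). ANB1, the eIF5A gene known to be repressed in air, read 12336 and 14677 in hypoxic cells, against 518 and 629 in normoxic cells (log2 difference 4.56, adjusted p = 3.72e-07). It was high in both hem1 groups, with 11879 and 9776 without ALA, against 7713 and 8217 with ALA (log2 difference 0.44, no call), and was higher in hem1 with ALA than in normoxic wild type cells by 3.80 on the log2 scale (adjusted p = 2.07e-05). Among 6 factors that sit on the ribosome, 5 were lower in each treatment, with ASC1 at -0.63 and -1.51 (adjusted p = 0.00343 and 2.86e-05). After quantile normalization 3 of these 6 were lower without ALA.

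Of the 14 regulators of ribosomal protein gene transcription, 1 was lower and 3 were higher without ALA, and 1 was lower and 7 were higher in hypoxia. Over all probe sets 30.2% were called higher without ALA and 33.3% in hypoxia. CRF1, a corepressor that acts through Fhl1 when TOR is inactive, read 461 and 451 without ALA, against 21.6 and 28.2 with ALA, and 497 and 603 in hypoxic cells, against 15 and 22.1 in normoxic cells. Its control arrays all lay below the 30th percentile of their array, so it entered the fit only through its treated arrays. That filter favours a rise, so no p-value is given for CRF1, which is among the 3 and 7 genes counted as higher. Its rise was at least 12.6-fold without ALA and at least 19.0-fold in hypoxia. SFP1, an activator of these genes, read 457 and 476 without ALA, against 180.2 and 274 with ALA, and 382 and 403 in hypoxic cells, against 111 and 131 in normoxic cells, higher by 1.07 and 1.70 (adjusted p = 0.00433 and 3.29e-04). SCH9, the kinase through which TOR acts on ribosome synthesis, read 425 and 514 in hypoxic cells, against 143 and 121 in normoxic cells (log2 difference 1.83, adjusted p = 8.34e-05). Without ALA SCH9 had no call, at 0.21, and its difference of the responses was called, at -1.62 (adjusted p = 0.00603). TOR2 was higher in both, by 1.37 without ALA and 1.64 in hypoxia (adjusted p = 0.00503 and 0.00168). TBF1, which binds ribosomal protein gene promoters in Candida albicans, was lower in both, at -0.72 and -0.64. Among other alternatives, its call without ALA was lost without either array lacking ALA, at -0.81 and -0.63, or the second with ALA, at -0.42, and its call in hypoxia without any 1 of the 4 wild type arrays, at -0.57 to -0.71. RAP1 and FHL1, the factors that mark these promoters, chosen for print after their values were seen, passed neither test, with -0.12 and -0.21 without ALA and 0.09 and 0.31 in hypoxia. With median centring 4 regulators were lower and 3 higher without ALA, and 1 was lower and 4 higher in hypoxia. Between the control cultures 4 of the 14 were higher in hem1 with ALA, where 13.8% of all probe sets were. Among them was IFH1, the coactivator bound through Fhl1, at 1.10 (adjusted p = 0.00274). With median centring 2 regulators were higher there, and after quantile normalization 1.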

How the data were processed

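RNA from 8 yeast samples was hybridised to 8 Affymetrix YG_S98 arrays, 4 groups of 2. The authors deposited 1 MAS5 signal intensity per probe set and array, scaled to a common mean. MAS5 is named in the submitters' processing notes, without a version. After 2% of probe sets were trimmed at each end, the array means were 500.42 to 500.58. Intensities below an array's 30th percentile carry little information, and the number of arrays limits the precision.

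Probe sets were named through the platform annotation of the array: of 9275 that are not controls, 6504 name 1 gene, 328 several and 2443 none. The 7081 above the 30th percentile on at least 2 arrays, with all 75 ribosomal protein genes among them, entered 1 limma fit (version 3.58.1, R 4.3.3) on log2 intensities of all 8 arrays, with a mean per group, an intensity trend in the prior and Benjamini-Hochberg adjustment over all 7081. The fit had 4 residual degrees of freedom and was tested on simulated data. No probe's level was set against another gene's. A dim group gives a bound, the brighter mean over the higher of the array's 30th percentile and the probe's own value.

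Named genes were the 5 lowest and 5 highest per treatment, the 4 lowest and 4 highest of the other contrasts, every gene called higher, the 6 widest pairs per treatment, and up to 3 genes per direction from each list. The members and lists were chosen with earlier results of these data known. Alternatives were the scaling, the filter, an offset of 50, no trend, 4 arrays only, the mean of a gene's probe sets, genes with no suffix, and leaving out each array or both arrays of high 18S signal. Joining the shared probe sets to the members, and the count of wide pairs, were chosen after seeing the data. Replicate numbers follow the order of deposit and pair nothing. Sequences and coordinates were not used here.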

Additional observations from a re-analysis of the deposited data

Results flagged for a closer look

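The response to heme depletion differed from that to hypoxia, by the limma test of the difference itself in the fit across all probe sets, in 10 of the 75 ribosomal protein genes, where 9.29% of all probe sets tested had a lower and 8.46% a higher value. The log2 difference of the responses was negative for RPL22B (-1.88), RPL7B (-1.37) and RPS9A (-0.89). It was positive for RPS1B (0.90), RPL15B (0.84), RPS1A (0.82), RPL13B (0.74), RPL6A (0.72), RPL14A (0.66) and RPS0B (0.64). Strain, ALA and culture time differ between the treatments and cannot be told apart from this contrast. The contrast also subtracts the difference of the control cultures, in which RPL22B, RPL7B and RPS9A were called higher and RPL15B lower in hem1 with ALA. By limma, 0 genes were called higher without the first normoxia array or without the arrays of high 18S signal (15 and 7 at an unadjusted p under 0.05), and RPS9A lost its call without any of 5 single arrays, at -0.77 to -0.90. RPL22B and RPL7B were called in every alternative that gave this contrast for the gene.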

How the results depend on the processing

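With median centring the members' median log2 difference was -1.09 in heme depletion (large subunit -1.11, small subunit -1.02), -1.37 in hypoxia (large -1.36, small -1.48), 0.39 in the difference of the responses and -0.32 between the control cultures, with 9 genes lower between the controls and 1 higher in hypoxia. After quantile normalization the medians were -0.48 (large -0.51, small -0.35), -0.60 (large -0.56, small -0.61), 0.21 and 0.057, the last of opposite sign, with 2 genes higher in heme depletion and 4 pairs more than 1 apart there. The number of lower genes over all alternatives that keep the 75 members ran from 41 to 73 in heme depletion and from 50 to 69 in hypoxia. Over all probe sets quantile normalization gave 1881 lower and 1637 higher in heme depletion and 2136 lower and 1673 higher in hypoxia. The cause of these shifts was not tested.

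With the mean of a gene's probe sets the medians were -0.71 in heme depletion (small subunit -0.68), 0.26 for the responses and -0.050 between controls, with 2 genes lower between controls and 2 wide pairs in heme depletion. Without the arrays of high 18S signal the medians were -0.74 (large -0.76, small -0.69) in heme depletion, -0.85 (large -0.84, small -0.94) in hypoxia and 0.16 for the responses, with 0 genes higher in the responses by limma (7 at an unadjusted p under 0.05) and 4 wide pairs in heme depletion. Genes with no suffix, fewer by construction, gave 33 lower in heme depletion, 37 lower and 1 higher in hypoxia, 1 lower and 4 higher for the responses and 2 higher between controls, with a small subunit median of -0.68 in heme depletion and an overall median of -0.86 in hypoxia. No intensity trend left 1 gene higher for the responses, and a filter at the 50th percentile gave 2 lower between controls. Adding the shared probe sets gave a heme median of -0.62, 93 lower in hypoxia and 3 lower between controls.

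Leaving out each array in turn gave medians of -0.74 to -0.59 in heme depletion (large -0.76 to -0.63, small -0.69 to -0.57), -0.94 to -0.85 in hypoxia (large -0.92 to -0.84, small -0.99 to -0.88), 0.21 to 0.34 for the responses and -0.11 to -0.045 between controls. Genes higher for the responses numbered 0 to 6 (15 at an unadjusted p in limma where 0), genes lower between controls 0 to 3 (1 and 2 at an unadjusted p where 0), wide pairs in heme depletion 1 to 4 and wide pairs for the responses 3 to 6. No paired analysis was possible because the replicate numbers follow the order of deposit and pair no samples. With 2 samples a group, small differences are not detectable. Promoter motifs were not searched.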
